A study of Mus musculus with 12 samples.

Results

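The cytochrome P450 genes of families 1 to 3 were examined in 12 RNA-Seq libraries of primary mouse hepatocytes. Members were the genes with a symbol of the form Cyp1, Cyp2 or Cyp3 followed by a subfamily letter and a number, pseudogenes left out, with a mean of at least 1 TPM in at least 1 of the 4 groups, TPM being transcripts scaled for gene length to a sum of 1000000 per library. Of 60 such symbols among 55450 annotated genes, 36 met the level, in 11 subfamilies. Cyp2c had 12 members, Cyp2d 7, Cyp3a 4, Cyp2a and Cyp2j 3 each, Cyp1a 2, and Cyp2b, Cyp2e, Cyp2f, Cyp2r and Cyp2u 1 each. A mean of at least 1 TPM was found in all 4 groups for 25 members, in 3 groups for 4, in 2 groups for 5 and in 1 group for 2, namely Cyp1a1 in GFP hepatocytes and Cyp2a4 in WT hepatocytes. Just inside the level was Cyp1a1, whose highest group mean was 1.01 TPM, and just outside was Cyp2c39 with 0.647 TPM in WT hepatocytes.

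The groups held 3 libraries each. KO hepatocytes carried the genotype written Cebpa{delta}Alb, a deletion of the floxed Cebpa gene by Cre under the albumin promoter, which acts in cells that express albumin. WT hepatocytes were Cebpafl/fl, floxed and without the deletion. OE hepatocytes had received the adenovirus Ad-m-Cebpa for overexpression of mouse Cebpa, and GFP hepatocytes the adenovirus Ad-GFP. The labels give no mouse genotype for the OE and GFP groups, no age and no duration of virus exposure. The study describes adenovirus-treated WT hepatocytes and hepatocytes of chow-fed mice for other assays, without tying those details to these libraries. They call the replicates biological without saying whether each came from its own mouse or culture, and the p-values then cover only how far these preparations differed from each other.

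P450 enzymes are heme proteins of the endoplasmic reticulum that insert 1 oxygen atom into their substrates with electrons passed on by P450 oxidoreductase. Families 1 to 3 clear drugs and other foreign compounds and also act on steroids, bile acids and fatty acids, and hepatocytes hold more of them than most other cells. Many are induced through the aryl hydrocarbon receptor (Ahr), the constitutive androstane receptor (CAR, Nr1i3) or the pregnane X receptor (PXR, Nr1i2), several differ between male and female mouse liver, and many are concentrated around the central vein. CEBPA is a basic leucine zipper factor of mature hepatocytes that binds palindromes built from TTGC and GCAA arms. When hepatocytes are placed in culture, mRNAs of many P450 genes are known to decline.

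Library depth was alike, with 20160081 to 23304230 estimated counts per library. Cebpa was at 0.54, 0.14 and 0.09 TPM in KO and 175, 122.9 and 165 TPM in WT hepatocytes, and at 9924, 10238 and 10733 TPM in OE and 29.3, 31.2 and 33.7 TPM in GFP hepatocytes, so each library matched its label. Hepatocyte markers (7 of 8 were in the tables) summed to 90389 to 101785 TPM in KO, 79119 to 83172 in WT, 11088 to 11420.5 in OE and 19668 to 20262 in GFP hepatocytes. The 8 macrophage markers summed to 9.0 to 27.7 TPM in KO, 2.60 to 15.3 in WT, 187 to 207 in OE and 174 to 196 in GFP hepatocytes. The sums in OE and GFP hepatocytes were nearly all Cd68, while the defining markers Adgre1 and Clec4f were at 0.12 TPM or less in OE and at 0 in GFP libraries, except for Clec4f at 0.18 TPM in OE1. The 5 bile duct markers summed to 362 to 488 TPM in KO and 7.47 to 16.0 in WT hepatocytes, nearly all of it Spp1 and Sox9, with Krt19 at no more than 0.3 TPM in KO hepatocytes. The KO libraries were not alike: 7 inflammatory and acute phase genes summed to 9027, 13729.8 and 414 TPM, against 260.3, 359 and 2545 TPM in the WT libraries, which sets KO1 and KO2 apart from KO3 and, less far, WT3 from WT1 and WT2. The part of these differences in the results was not tested. In bulk RNA a lower level can stand for fewer cells that carry the RNA or less RNA per cell, and these cannot be told apart.

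Promoter windows from RefSeq (build GRCm38.p6, 250 bases before to 50 after the start of the gene) were found for 31 of the 36 members. Each window was searched on both strands for TTGCNNAA, a TTGC arm followed by any 2 bases and AA, called the core here. A match need not be a palindrome and need not hold the GCAA arm. The core lay in 9 of the 31 members and in 10.8% of all 32851 RefSeq windows of that length. Among members called lower in KO hepatocytes it lay in 4 of 8 (Cyp2a4, Cyp2c37, Cyp2c40 and Cyp2c67), among members called higher in OE hepatocytes in 3 of 7 (Cyp2c40, Cyp2c69 and Cyp2j9) and among members called lower in OE hepatocytes in 4 of 21. The full palindrome TTGCGCAA was in none of the 31 and in 0.183% of all windows, while the TATA box TATAAA was in 20 of the 31 (64.5%) and in 13.6% of all windows. A match describes these letters only and shows neither binding nor a cause.

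The windows of 6 members are given, chosen after their values were seen. They show the core in members called in either direction (Cyp2a4, Cyp2c40, Cyp2c69, Cyp2c67 and Cyp2j9), and Cyp2c68 is added because its window is 91.1% identical to that of Cyp2c69. Several members with differences as clear, such as Cyp1a2, Cyp3a11 and Cyp3a13, had no core. Capitals mark TTGCNNAA matches, and each sequence runs 5′ to 3′ along the strand of its gene, namely plus for Cyp2a4 at chr7:26306942-26307241 and minus for Cyp2c40 at chr19:39812765-39813064, Cyp2c69 at chr19:39886720-39887019, Cyp2c67 at chr19:39648993-39649292, Cyp2c68 at chr19:39741052-39741351 and Cyp2j9 at chr4:96591436-96591735.
Cyp2a4: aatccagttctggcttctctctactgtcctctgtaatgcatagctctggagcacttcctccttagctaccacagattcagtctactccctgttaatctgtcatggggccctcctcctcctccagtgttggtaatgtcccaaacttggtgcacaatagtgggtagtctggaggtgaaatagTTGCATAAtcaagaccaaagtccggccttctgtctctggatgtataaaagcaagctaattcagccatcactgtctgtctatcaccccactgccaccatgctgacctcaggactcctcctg
Cyp2c40: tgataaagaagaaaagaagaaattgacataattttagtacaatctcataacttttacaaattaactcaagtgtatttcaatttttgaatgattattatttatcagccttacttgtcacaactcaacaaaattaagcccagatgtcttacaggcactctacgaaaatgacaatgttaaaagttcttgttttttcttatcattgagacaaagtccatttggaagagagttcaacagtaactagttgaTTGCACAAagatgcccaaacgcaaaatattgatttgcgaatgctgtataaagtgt
Cyp2c69: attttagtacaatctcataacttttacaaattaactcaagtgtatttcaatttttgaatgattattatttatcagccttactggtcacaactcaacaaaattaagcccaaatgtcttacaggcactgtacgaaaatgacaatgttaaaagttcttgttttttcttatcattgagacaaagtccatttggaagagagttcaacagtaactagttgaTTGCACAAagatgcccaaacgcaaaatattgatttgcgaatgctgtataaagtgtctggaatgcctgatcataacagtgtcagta
Cyp2c67: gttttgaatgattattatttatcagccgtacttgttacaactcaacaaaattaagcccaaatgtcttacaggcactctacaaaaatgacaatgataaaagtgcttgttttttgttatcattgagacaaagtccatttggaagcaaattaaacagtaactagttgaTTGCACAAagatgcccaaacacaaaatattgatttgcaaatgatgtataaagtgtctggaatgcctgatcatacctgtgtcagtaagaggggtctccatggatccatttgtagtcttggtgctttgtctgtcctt
Cyp2c68: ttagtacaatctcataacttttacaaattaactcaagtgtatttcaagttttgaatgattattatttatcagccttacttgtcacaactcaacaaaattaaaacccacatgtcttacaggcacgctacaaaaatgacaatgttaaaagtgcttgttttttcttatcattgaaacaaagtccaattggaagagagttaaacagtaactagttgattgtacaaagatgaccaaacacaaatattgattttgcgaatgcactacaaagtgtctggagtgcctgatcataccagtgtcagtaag
Cyp2j9: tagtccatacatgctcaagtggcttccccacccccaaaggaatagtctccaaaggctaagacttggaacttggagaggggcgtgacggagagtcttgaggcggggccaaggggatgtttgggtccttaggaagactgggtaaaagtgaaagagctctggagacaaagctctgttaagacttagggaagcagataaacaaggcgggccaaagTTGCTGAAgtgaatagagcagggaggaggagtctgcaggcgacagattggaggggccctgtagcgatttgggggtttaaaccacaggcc
The match began 70 bases before the start in Cyp2a4, 5 in Cyp2c40, 35 in Cyp2c69, 85 in Cyp2c67 and 39 in Cyp2j9. These distances depend on the annotated RefSeq starts, since TATAAA lay before the start in Cyp2c67 but after it in Cyp2c40 and Cyp2c69. Cyp2c40, Cyp2c69 and Cyp2c67 shared the 8 bases TTGCACAA, and in alignments with the Cyp2c69 window these were the same stretch. At that stretch Cyp2c68 read ttgtacaa, which is the single substitution C4T counted from the first base of the Cyp2c69 match, so that Cyp2c68 held no core. In OE hepatocytes Cyp2c40 and Cyp2c69 were called higher, while Cyp2c67, and Cyp3a25 with the same bases on the other strand, were called lower. The OE and GFP libraries overlapped by TPM for Cyp2c67, and its call was lost under 5 of the alternatives. The part of these letters in the directions was not tested. Cyp2a4 and Cyp2a5 had windows 97.7% identical, with the same TTGCATAA in both.

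Members made up 1.32 to 1.69% of all TPM in KO and 1.74 to 1.99% in WT hepatocytes, and 0.0810 to 0.0868% in OE and 0.215 to 0.222% in GFP hepatocytes. Cyp2e1, which oxidises ethanol and acetaminophen, led in KO and WT hepatocytes by group mean. In OE hepatocytes Cyp3a13 led, and in GFP hepatocytes Cyp2b10, the classical target of CAR. In the heat map of TPM the 6 KO and WT libraries stand apart from the 6 OE and GFP libraries in most rows.

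**Figure D1:**
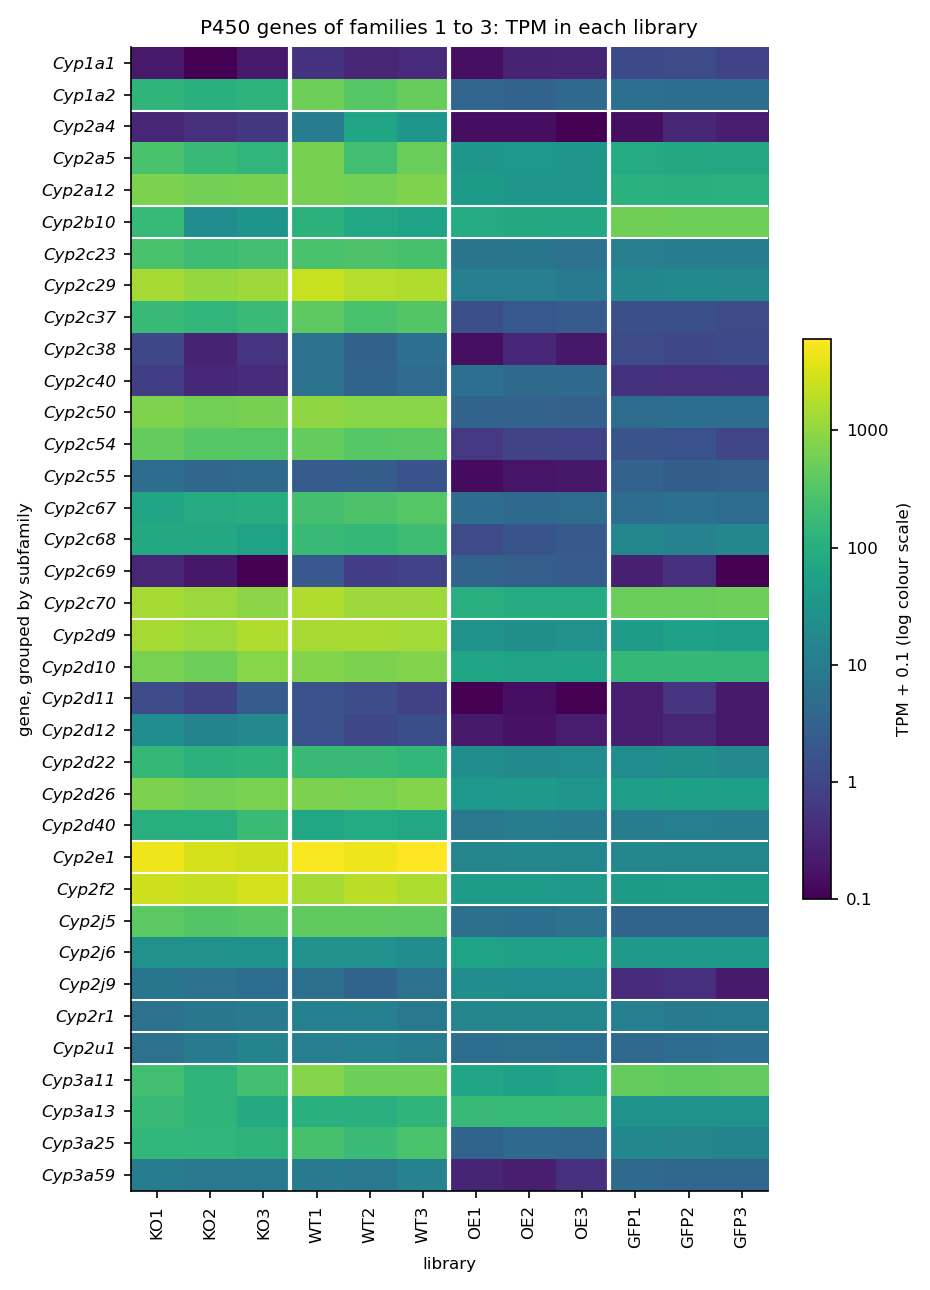
Level of the 36 members (rows, grouped by subfamily) in each of the 12 libraries (columns, KO, WT, OE and GFP), as TPM + 0.1 on a log colour scale. Cyp2e1 and Cyp2f2 were brightest in KO and WT libraries and dim in OE and GFP libraries, while Cyp2b10 was brightest in GFP libraries.

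By subfamily, in KO against WT hepatocytes the summed TPM of Cyp1a was 137, 109 and 122 against 526, 353 and 459.6, and that of Cyp3a was 546, 415 and 447 against 1197, 822 and 943. In both sums the KO and WT libraries did not overlap, and the ratio of means was 0.275 for Cyp1a and 0.475 for Cyp3a. The Cyp2c sum did not overlap either, with KO1 highest among KO libraries at 4482 TPM and WT3 lowest among WT libraries at 5157 TPM. The Cyp2e and Cyp2j sums were also lower in every KO library, but narrowly. KO1 was at 4560.5 TPM against 4569 in WT2 for Cyp2e, and at 418.5 TPM against 420.2 in WT3 for Cyp2j. The sum was 3919 ± 488 TPM in KO and 5621 ± 757 TPM in WT hepatocytes for Cyp2c (SD, n = 3 each). It was 3012 ± 452 TPM in KO and 3102 ± 45.3 TPM in WT hepatocytes for Cyp2d. Cyp2f2, the only member of its subfamily and the enzyme that oxidises naphthalene, was higher by TPM in all 3 KO libraries (2629, 2291 and 2799) than in any WT library (1354, 1955 and 1580.2), but did not pass the test (log2 fold change 0.69 ± 0.18 (SE), adjusted p = 0.138).

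In OE against GFP hepatocytes the sums of Cyp2b, Cyp2c, Cyp2a and Cyp3a were lower in every library, with ratios of mean TPM of 0.151, 0.228, 0.363 and 0.489. Those of Cyp2d and Cyp1a were lower in every library as well, with ratios of 0.545 and 0.596. The Cyp2j sum ran the other way, at 86.1, 80.5 and 79.6 TPM in OE and 41.1, 41.6 and 41.2 TPM in GFP hepatocytes. Sums over chosen genes carry no p-value here.

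**Figure D2:**
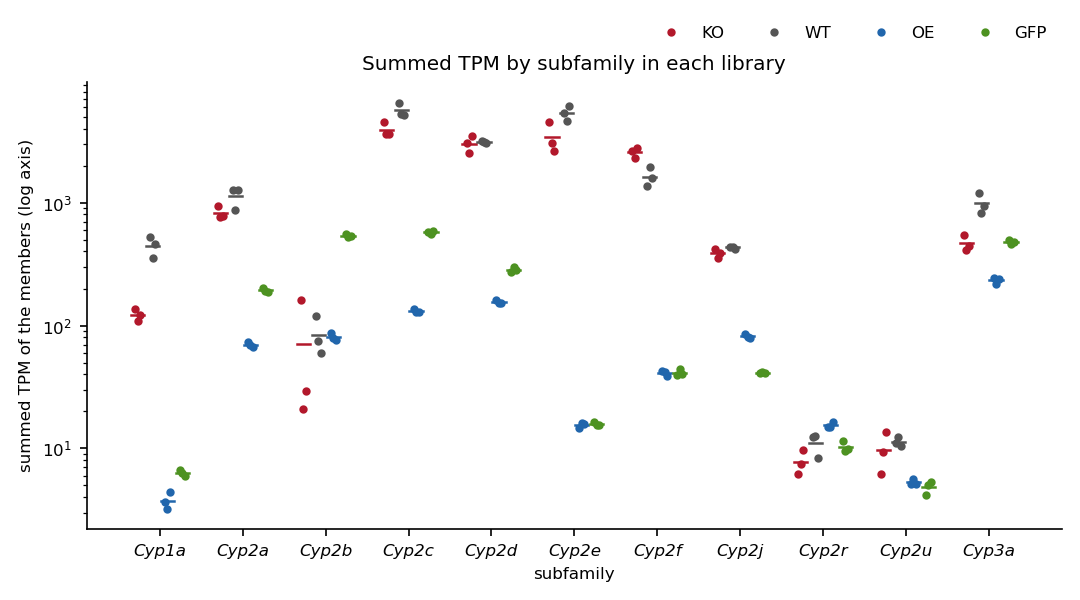
Summed TPM of the members of each subfamily on a log axis, with a point per library and a bar at the mean of KO, WT, OE and GFP hepatocytes. Cyp2e ran from 2614 to 6063 TPM in KO and WT libraries and from 14.8 to 16.5 TPM in OE and GFP libraries, while Cyp2b peaked in GFP libraries at 526 to 551 TPM.

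Loss of CEBPA in hepatocytes was read from KO against WT. Members lost RNA more often than they gained it: of 35 tested, 8 fell and 1 rose at an adjusted p under 0.05 (edgeR quasi-likelihood test and Benjamini-Hochberg adjustment across the 11846 genes that passed the filter). Over all genes tested, 1.02% were called lower and 0.692% higher. The median log2 fold change of the tested members was -0.21, against 0.01 over all genes. With limma on log2(TPM + 1) the split over all genes was 33 higher and 80 lower, against 82 higher and 121 lower with edgeR. The TPM of KO and WT libraries did not overlap for 14 tested members on the lower side and 4 on the higher side, which over all genes was so for 11.6% and 6.86%. Calls in this comparison are those of edgeR on the 6 libraries unless another tool is named. DESeq2 made the same 9 calls and further called Cyp2a5, Cyp2c29, Cyp2c50, Cyp2c69 and Cyp3a25 lower and Cyp2c55 and Cyp2f2 higher, and the edgeR fit of all 12 libraries called all of these and Cyp2d40 higher. Cyp1a1 did not pass the filter on low counts.

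Cyp1a2, which metabolises caffeine and aromatic amines, was at 136, 109 and 122 TPM in KO and 526, 352 and 459 TPM in WT hepatocytes. Every KO library lay well below every WT library, and the fall was 3.52-fold (log2 fold change -1.81 ± 0.16 (SE), adjusted p = 0.00391). Cyp3a11, the main PXR-inducible Cyp3a enzyme of mouse liver, was at 219, 133 and 222 TPM in KO and 829.7, 527 and 524 TPM in WT hepatocytes. The groups again did not overlap, and it fell 3.20-fold (log2 fold change -1.68 ± 0.25 (SE), adjusted p = 0.028), a call lost without WT1, WT2, WT3, KO1 or KO2 (adjusted p 4.04e-09 to 0.0955 over the alternatives). Its neighbour Cyp3a25 was at 148, 139 and 131 TPM in KO and 247, 182 and 269.7 TPM in WT hepatocytes and did not pass the test (log2 fold change -0.69 ± 0.14 (SE), adjusted p = 0.0774). Cyp3a13 and Cyp3a59 overlapped between the groups, with log2 fold changes of 0.19 ± 0.25 and -0.11 ± 0.19.

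The deepest fall was in Cyp2a4, a steroid hydroxylase gene with more RNA in female than male mouse liver (ENSMUSG00000074254.4, chr7:26307169-26315088 in mm10, plus strand, overlapped by the annotated gene Gm42375). It was at 0.22, 0.35 and 0.5 TPM in KO and 10.04, 64.3 and 33.2 TPM in WT hepatocytes. All KO libraries were below 1 TPM, while the WT libraries differed from each other by several fold. The fall was 98.6-fold (log2 fold change -6.62 ± 0.86 (SE), adjusted p = 0.0177), and the call was lost without WT3, KO1 or KO2 (adjusted p 1.54e-12 to 0.0738 over the alternatives). Cyp2a4 entered the set only through its WT mean, so its fall, also counted above, was favoured by the way members were chosen. Its near-copy Cyp2a5, the coumarin hydroxylase, was at 255, 168 and 142 TPM in KO and 633, 219 and 496 TPM in WT hepatocytes. There the groups overlapped through KO1 and WT2, and Cyp2a5 did not pass the test (log2 fold change -1.20 ± 0.38 (SE), adjusted p = 0.225). Of the 50-base stretches of the Cyp2a4 exons 36.1% also occur in Cyp2a5, so reads may have been split between the pair. The third member, Cyp2a12, was level at 636 ± 38.4 TPM in KO and 644 ± 71.9 TPM in WT hepatocytes (SD, n = 3 each; log2 fold change 0.03 ± 0.11 (SE), adjusted p = 0.934).

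In the Cyp2c cluster on chromosome 19, whose mouse members oxidise arachidonic and linoleic acid as well as drugs, edgeR called 5 of 12 members lower and none higher, while DESeq2 called 8 lower and Cyp2c55 higher. Cyp2c40 (ENSMUSG00000025004.15, chr19:39767071-39812814, minus strand) was at 0.67, 0.25 and 0.33 TPM in KO and 6.28, 3.40 and 4.68 TPM in WT hepatocytes. No KO library reached 1 TPM and no WT library was below 3, a fall of 10.6-fold (log2 fold change -3.40 ± 0.46 (SE), adjusted p = 0.0203). Cyp2c38 was at 0.93, 0.2 and 0.42 TPM in KO and 6.59, 2.98 and 5.40 TPM in WT hepatocytes (log2 fold change -3.23 ± 0.51 (SE), adjusted p = 0.0315). Both low-level calls were lost without WT1, WT2, WT3 or KO2 (adjusted p 4.44e-10 to 0.084 for Cyp2c40 and 4.9e-09 to 0.14 for Cyp2c38 over the alternatives).

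Cyp2c67 had far more RNA, with 68.1, 88.1 and 94.4 TPM in KO and 234, 285 and 331 TPM in WT hepatocytes. It did not overlap between the groups and fell 3.30-fold (log2 fold change -1.72 ± 0.18 (SE), adjusted p = 0.00838), a call held under every alternative. Cyp2c68 was at 82.0, 75.8 and 56.9 TPM in KO and 172, 154 and 197 TPM in WT hepatocytes (log2 fold change -1.24 ± 0.17 (SE), adjusted p = 0.0207; lost without WT1, WT2, WT3 or KO2, adjusted p 4.35e-09 to 0.0955 over the alternatives). Cyp2c37 was at 166, 139.7 and 181 TPM in KO and 401, 258 and 313 TPM in WT hepatocytes. It had the weakest call of the 8, log2 fold change -0.95 ± 0.17 (SE), adjusted p = 0.0437, which was lost without any of WT1, WT2, WT3, KO1 and KO2 and with library totals, the stricter filter or limma (adjusted p 1.38e-05 to 0.141 over the alternatives).

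Not every low-level Cyp2c gene moved that way. Cyp2c55 was at 5.0, 3.69 and 4.34 TPM in KO and 2.38, 2.49 and 1.64 TPM in WT hepatocytes, higher in each KO library but short of the threshold in edgeR (log2 fold change 1.04 ± 0.22 (SE), adjusted p = 0.0859) and called by DESeq2 (adjusted p = 0.00743). Cyp2c69, named here after its values were seen, was at 0.23, 0.1 and 0 TPM in KO and 1.86, 0.64 and 0.8 TPM in WT hepatocytes, with no call by edgeR (log2 fold change -3.36 ± 0.82 (SE), adjusted p = 0.121) and a call by DESeq2 (adjusted p = 0.00662). Cyp2c29 was at 1372, 1046 and 1218 TPM in KO and 2408, 1787 and 1629 TPM in WT hepatocytes, without overlap (edgeR log2 fold change -0.64 ± 0.18 (SE), adjusted p = 0.168; DESeq2 adjusted p = 0.0182). Cyp2c70, which makes muricholic acids in mice, was at 1139.6 ± 246 TPM in KO and 1348 ± 217 TPM in WT hepatocytes (log2 fold change -0.21 ± 0.21 (SE), adjusted p = 0.68). Cyp2c54 and Cyp2c23 overlapped, at 0.03 ± 0.16 and -0.18 ± 0.13 on the log2 scale.

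The member that edgeR called higher was Cyp2d12 (ENSMUSG00000096852.2, chr15:82555072-82560403 in mm10, plus strand), in the Cyp2d cluster on chromosome 15. It was at 20.7, 13.9 and 17.9 TPM in KO and 1.61, 0.99 and 1.30 TPM in WT hepatocytes. The lowest KO library was several times above the highest WT library, and the rise was 13.7-fold (log2 fold change 3.77 ± 0.22 (SE), adjusted p = 0.000837) and held under every alternative that tested the gene. The annotated gene Gm27924 overlaps its span. The other Cyp2d members were called neither by edgeR on the 6 libraries nor by DESeq2. Cyp2d9, a testosterone hydroxylase gene with more RNA in male mouse liver, was at 1397 ± 222 TPM in KO and 1398 ± 86.8 TPM in WT hepatocytes (SD, n = 3 each; log2 fold change 0.03 ± 0.14 (SE), adjusted p = 0.948). Cyp2d10 and Cyp2d26 lay at -0.07 ± 0.17 and -0.09 ± 0.12 on the log2 scale, with overlap.

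Cyp2e1 was at 4560.5, 3024 and 2614 TPM in KO and 5351, 4569 and 6063 TPM in WT hepatocytes. KO1 lay just below WT2, the other KO libraries further down, and the difference was not called (log2 fold change -0.60 ± 0.23 (SE), adjusted p = 0.306). Cyp2b10 was at 161, 20.9 and 29.4 TPM in KO and 119.5, 74.3 and 59.4 TPM in WT hepatocytes, with KO1 above and the other two KO libraries below all WT libraries (log2 fold change -0.21 ± 0.74 (SE), adjusted p = 0.919). The Cyp2j genes, whose products oxidise arachidonic acid, the vitamin D hydroxylase gene Cyp2r1 and the fatty acid hydroxylase gene Cyp2u1 had log2 fold changes from -0.41 (Cyp2r1) to 0.33 (Cyp2j9), none called. Without KO3, the library with the low inflammatory sum, 8 members were again called lower, against 5 without KO1 and 2 without KO2. In each case 1 was called higher. The part of the inflammatory genes in these counts was not tested.

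**Figure D3:**
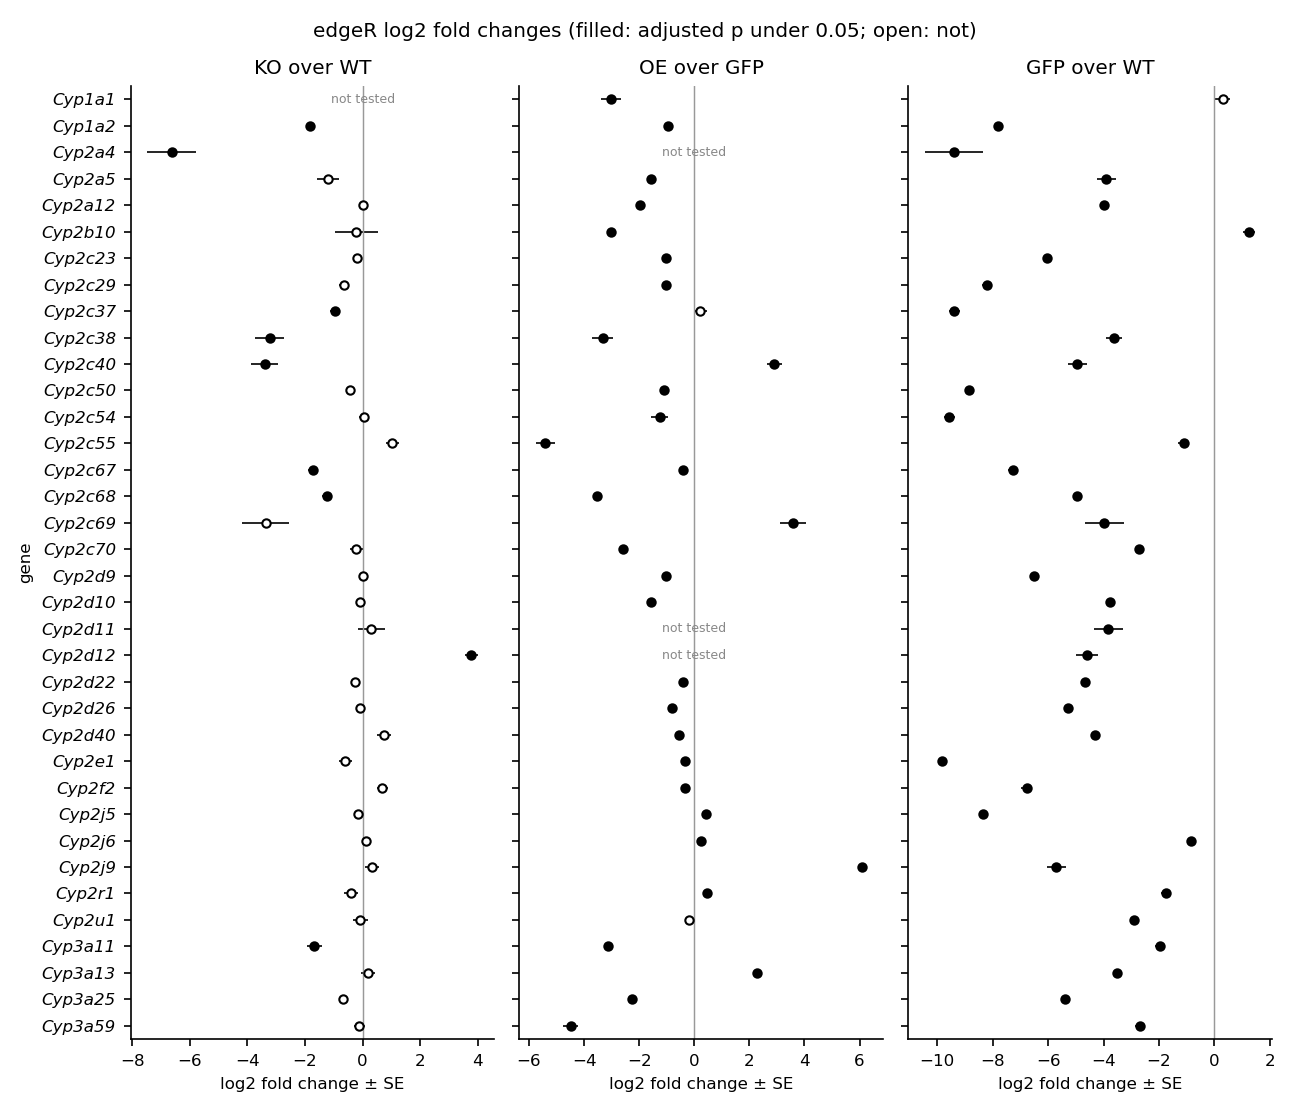
Log2 fold change of each member (rows) with its standard error in KO over WT, OE over GFP and GFP over WT, from edgeR; filled points passed an adjusted p of 0.05. KO over WT held 8 filled points left of 0 and 1 right of it, OE over GFP 24 and 7, and GFP over WT 34 and 1, each panel with its own scale.

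Gain of CEBPA in cultured hepatocytes was read from OE against GFP. Here 24 of 33 tested members fell and 7 rose, while over all 14889 genes tested 42.7% were called lower and 43.9% higher. With limma on log2(TPM + 1) all genes split into 7531 higher and 4263 lower, against 6531 and 6362 with edgeR, and members into 7 and 19. Above 2-fold, 17 fell and 4 rose, against 18.5% and 23.5% of all genes. The median log2 fold change of the members was -1.02, against 0.01 over all genes. By TPM 19 tested members lay lower and 7 higher without overlap, where 29.8% and 53.8% of all genes did so. Cyp2a4, Cyp2d11 and Cyp2d12 did not pass the filter, each below 0.5 TPM in all 6 libraries. The edgeR fold changes ran a median of 0.32 log2 units below the ratios of TPM in this comparison, so a small called fall can stand beside TPM values that overlap.

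The 4 members that rose above 2-fold came from 3 subfamilies. Cyp2j9, a fatty acid oxygenase gene (ENSMUSG00000015224.10, chr4:96568429-96591578, minus strand), was at 21.7, 21.4 and 20.4 TPM in OE and 0.31, 0.34 and 0.12 TPM in GFP hepatocytes. No GFP library reached 0.5 TPM and all OE libraries exceeded 20, a rise of 68.5-fold (log2 fold change 6.10 ± 0.16 (SE), adjusted p = 5.97e-14). Its promoter window holds TTGCTGAA, and no 50-base exon stretch of it is shared with another gene. Cyp3a13 (ENSMUSG00000029727.7, chr5:137892932-137921619, minus strand, overlapped by the annotated gene Gm15502) was at 174, 159.6 and 172 TPM in OE and 27.9, 29.1 and 26.8 TPM in GFP hepatocytes, far apart in every library. It rose 4.82-fold (log2 fold change 2.27 ± 0.04 (SE), adjusted p = 1.25e-15), the only Cyp3a member to do so, and its window held no TTGCNNAA.

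Cyp2c40 was at 5.58, 4.49 and 4.30 TPM in OE and 0.41, 0.35 and 0.38 TPM in GFP hepatocytes. By TPM the OE libraries stood where the WT libraries stood and the GFP libraries where the KO libraries stood. The experiments differ in more than CEBPA, and the match did not hold by TMM-scaled counts. By those Cyp2c40 lay further below WT in GFP hepatocytes (log2 fold change -4.94 ± 0.34 (SE)) than in KO hepatocytes (-3.40 ± 0.46). The rise in OE over GFP hepatocytes was 7.53-fold (log2 fold change 2.91 ± 0.27 (SE), adjusted p = 1.16e-07). Cyp2c69, which shares the TTGCACAA of Cyp2c40, was at 3.22, 2.70 and 2.39 TPM in OE and 0.16, 0.37 and 0 TPM in GFP hepatocytes (log2 fold change 3.58 ± 0.46 (SE), adjusted p = 4.41e-06). Cyp2c67, which holds the same 8 bases, did not rise (log2 fold change -0.41 ± 0.13). Cyp2c68, a close relative, was at 1.18, 1.64 and 2.08 TPM in OE and 15.7, 13.1 and 16.2 TPM in GFP hepatocytes. It fell 11.5-fold (log2 fold change -3.53 ± 0.16 (SE), adjusted p = 2.9e-11). These genes resemble each other closely: of the 50-base stretches of their exons, 60.3% of Cyp2c40, 54.3% of Cyp2c69, 52.8% of Cyp2c67 and 43.3% of Cyp2c68 occur word for word in another gene, so reads may have been split between them and single-gene values at these low levels are uncertain.

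The 3 smaller rises were in Cyp2j5 (0.41 ± 0.11), Cyp2j6 (0.23 ± 0.04) and Cyp2r1 (0.46 ± 0.09). Cyp2j6, with the most RNA of these, was at 58.7, 54.0 and 53.3 TPM in OE and 37.4, 37.9 and 37.8 TPM in GFP hepatocytes. Cyp2j5 was at 5.69, 5.16 and 5.93 TPM in OE and 3.40, 3.37 and 3.32 TPM in GFP hepatocytes. All 3 Cyp2j members thus rose, and in none did the groups overlap. Cyp2u1 was not called (log2 fold change -0.19 ± 0.10 (SE), adjusted p = 0.108).

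Of the members that fell, 4 known for induction by foreign compounds are given here. They were picked after their values were seen and are among the steeper falls, so they do not stand for inducible P450 genes as a class. Cyp2b10 was at 87.0, 79.0 and 76.4 TPM in OE and 551, 526 and 530.3 TPM in GFP hepatocytes, a fall of 8.22-fold (log2 fold change -3.04 ± 0.05 (SE), adjusted p = 3.24e-16). Cyp3a11 was at 64.7, 55.4 and 65.0 TPM in OE and 449, 412 and 434 TPM in GFP hepatocytes, a fall of 8.74-fold (log2 fold change -3.13 ± 0.05 (SE), adjusted p = 1.01e-15). Cyp2c55, which CAR and PXR ligands induce in mice, was at 0.04, 0.09 and 0.1 TPM in OE and 3.03, 2.45 and 2.71 TPM in GFP hepatocytes. It had the steepest fall of all members, 42.4-fold (log2 fold change -5.41 ± 0.34 (SE), adjusted p = 1.39e-09). Cyp1a1, the best known target of Ahr, was at 0.06, 0.2 and 0.21 TPM in OE and 1.10, 1.12 and 0.81 TPM in GFP hepatocytes (log2 fold change -3.02 ± 0.37 (SE), adjusted p = 2.81e-06). Cyp1a1 entered the set only through its GFP mean, so its fall, also counted above, was favoured by the way members were chosen. In each of these 4 genes the OE and GFP libraries were clearly apart.

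**Figure D4:**
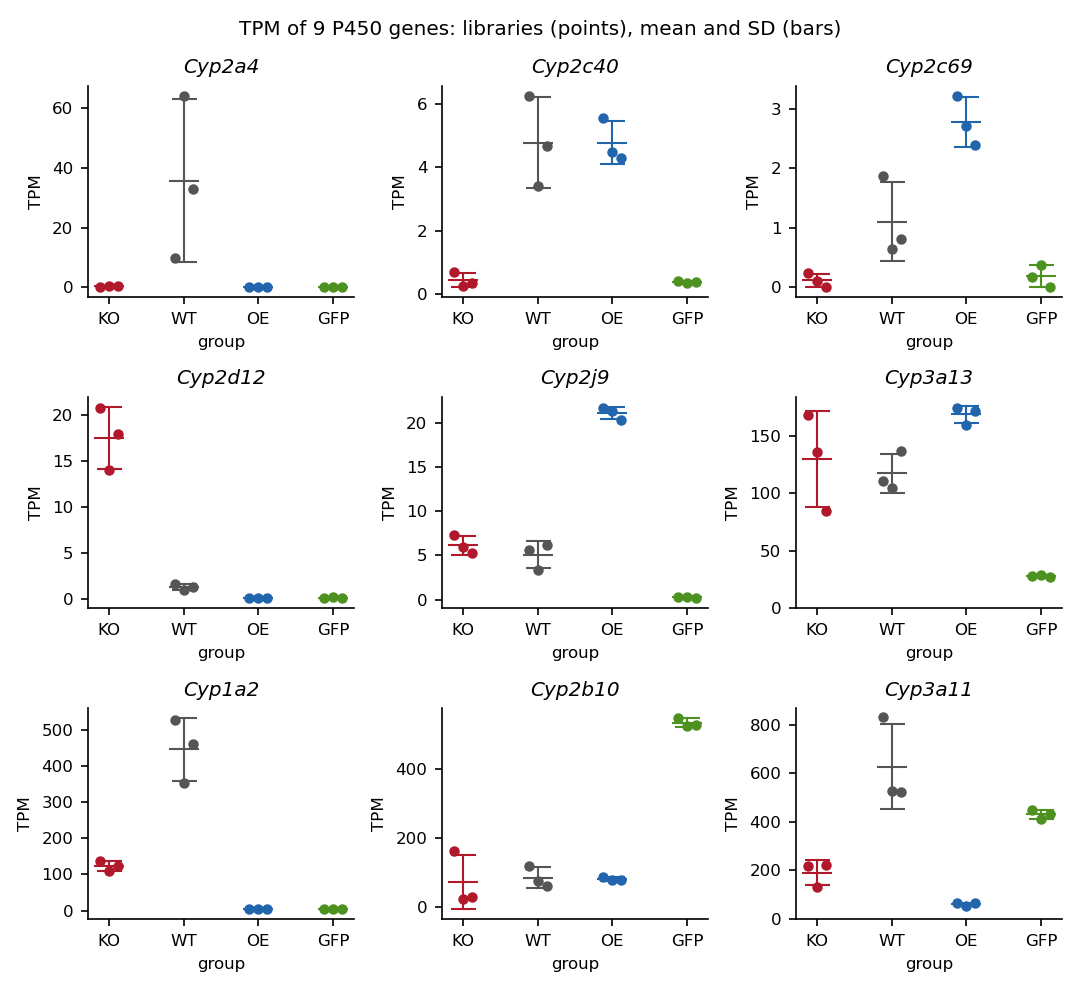
TPM of 9 members in KO, WT, OE and GFP hepatocytes, with a point per library and the mean and SD as bars. Cyp2c40 was high in WT and OE and low in KO and GFP libraries, Cyp2d12 was above 13 TPM in KO libraries only, and Cyp2b10 was at 526 to 551 TPM in GFP libraries and at no more than 161 TPM elsewhere.

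The remaining Cyp3a members, Cyp3a25 and Cyp3a59, fell 4.81-fold and 22.5-fold. Cyp3a59 was at 0.21, 0.15 and 0.35 TPM in OE and 4.42, 4.0 and 4.04 TPM in GFP hepatocytes (log2 fold change -4.49 ± 0.26 (SE), adjusted p = 4.56e-10). Cyp2c70, with the most RNA of the Cyp2c members in these cultures, was at 98.9, 90.5 and 92.3 TPM in OE and 511, 497 and 532 TPM in GFP hepatocytes (log2 fold change -2.58 ± 0.04 (SE), adjusted p = 5.83e-16). Both Cyp2a members tested fell, Cyp2a12 by 3.90-fold and Cyp2a5 by 2.97-fold. Cyp2a5 was at 33.2, 35.6 and 33.5 TPM in OE and 85.6, 80.2 and 77.0 TPM in GFP hepatocytes (log2 fold change -1.57 ± 0.05 (SE), adjusted p = 5.29e-13). In the Cyp2d subfamily all 5 tested members fell, led by Cyp2d10 at 67.1, 61.5 and 63.1 TPM in OE and 152, 156 and 155 TPM in GFP hepatocytes (log2 fold change -1.58 ± 0.04 (SE), adjusted p = 1.36e-14).

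Cyp2c38 fell (log2 fold change -3.32 ± 0.38 (SE), adjusted p = 1.4e-06), and Cyp1a2 fell 1.94-fold (log2 fold change -0.95 ± 0.13 (SE), adjusted p = 8.42e-06) at 3.58, 3.03 and 4.18 TPM in OE and 5.53, 5.17 and 5.17 TPM in GFP hepatocytes. Falls of 2.03- to 2.39-fold were called for Cyp2c23, Cyp2c29, Cyp2c50, Cyp2c54 and Cyp2d9. Cyp2e1 was at 14.8, 16.0 and 15.7 TPM in OE and 16.5, 15.6 and 15.6 TPM in GFP hepatocytes. Cyp2f2 was at 42.7, 42.1 and 38.7 TPM in OE and 39.8, 44.0 and 40.4 TPM in GFP hepatocytes. Both overlapped by TPM, and their called falls (-0.35 ± 0.07 and -0.35 ± 0.05) were lost in limma on log2(TPM + 1), that of Cyp2e1 also in the fit of all 12 libraries. Cyp2c67 overlapped as well (log2 fold change -0.41 ± 0.13 (SE), adjusted p = 0.0109), its call being lost without OE2, with DESeq2, library totals or limma, or in the fit of all 12 libraries (adjusted p 0.0124 to 0.467 over the alternatives), and Cyp2c37 was not called (log2 fold change 0.21 ± 0.24 (SE), adjusted p = 0.414).

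GFP against WT hepatocytes compares virus control cultures with floxed hepatocytes, so virus, culture, genotype and experiment cannot be told apart, and the WT libraries are those also used for KO. Nearly every member had less RNA in GFP hepatocytes: 34 of 36 fell and 1 rose, where 38.4% of all 13760 genes tested were called lower and 45% higher. By TPM 31 members lay lower and 3 higher without overlap, which over all genes was so for 13% and 78.4%. The median log2 fold change of the members was -4.64, against 0.13 over all genes. With library totals in place of TMM scaling the median of all genes moved by 1.24 log2 units, 3 members were called higher and 32 lower, and calls over all genes were 10410 higher and 2074 lower, against 6186 and 5282 with TMM scaling. The direction of Cyp2j6 (-0.85 with TMM, 0.38 with totals) and of Cyp2c55 (-1.11 with TMM, 0.12 with totals) turned with that choice, and with limma on log2(TPM + 1) all genes split into 10438 higher and 1739 lower. Fold changes here are relative to the median gene.

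Cyp2e1 fell furthest, at 16.5, 15.6 and 15.6 TPM in GFP and 5351, 4569 and 6063 TPM in WT hepatocytes, which was 911-fold by TMM-scaled counts (log2 fold change -9.83 ± 0.15 (SE), adjusted p = 1.63e-09) and 335-fold by TPM. Cyp2c54, Cyp2c37, Cyp2a4, Cyp2c50, Cyp2j5 and Cyp2c29 had log2 fold changes between -9.56 (Cyp2c54) and -8.21 (Cyp2c29). Since Cyp2a4 entered the set only through its WT mean, its fall here, also counted above, was favoured by the way members were chosen. Cyp2c29, among the most abundant members in WT hepatocytes, was at 17.2, 18.7 and 17.4 TPM in GFP and 2408, 1787 and 1629 TPM in WT hepatocytes. Cyp1a2 was at 5.53, 5.17 and 5.17 TPM in GFP and 526, 352 and 459 TPM in WT hepatocytes (log2 fold change -7.80 ± 0.16 (SE), adjusted p = 3.65e-09). In all of these the 2 groups lay far apart. Others fell less, such as Cyp3a11 at 449, 412 and 434 TPM in GFP and 829.7, 527 and 524 TPM in WT hepatocytes (log2 fold change -1.97 ± 0.17 (SE), adjusted p = 1.07e-05) and Cyp2c70 (log2 fold change -2.74 ± 0.12 (SE), adjusted p = 2.02e-07).

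With TMM scaling the member called higher was Cyp2b10, at 551, 526 and 530.3 TPM in GFP and 119.5, 74.3 and 59.4 TPM in WT hepatocytes. Every GFP library was more than 4 times the highest WT library by TPM, and the rise was 2.38-fold by TMM-scaled counts (log2 fold change 1.25 ± 0.23 (SE), adjusted p = 0.00117), a call lost in the fit of all 12 libraries. By group mean it stood 1st among the members in GFP and 22nd in WT hepatocytes. Nr1i3, which encodes CAR, was at 0.19, 0.09 and 0.14 TPM in GFP and 218, 182 and 172 TPM in WT hepatocytes. Cyp1a1 was at 1.10, 1.12 and 0.81 TPM in GFP and 0.41, 0.23 and 0.29 TPM in WT hepatocytes, without overlap. It was not called with TMM scaling (log2 fold change 0.30 ± 0.28 (SE), adjusted p = 0.353) but was called higher with library totals (log2 fold change 1.52, adjusted p = 0.000999) and with limma (adjusted p = 0.00189).

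The 2 effects were compared per gene as the OE effect (over GFP) minus the KO effect (over WT). KO removes CEBPA and OE adds it, so a gene that follows CEBPA in both has opposite effects and a large difference. A small difference means that the gene shifted alike under loss and gain. The difference was called higher for 9 of 36 members and lower for 18, where 25.9% of all 15326 genes were called higher and 28.1% lower. With limma on log2(TPM + 1) the members split into 13 higher and 15 lower and all genes into 6521 and 3129, against 3972 and 4313 with edgeR. Only Cyp2c40 was called lower in KO and higher in OE hepatocytes, with a difference of 6.33 ± 0.55 on the log2 scale (adjusted p = 1.75e-06). Cyp2j9 (5.79 ± 0.38), Cyp2c69 (6.98 ± 1.05) and Cyp3a13 (2.10 ± 0.27) also had positive differences that were called. Cyp2c40 and Cyp2c69 entered the set only through their WT and OE means. Their positive differences were therefore favoured by the way members were chosen. The members called lower in both numbered 5, namely Cyp1a2, Cyp2c38, Cyp2c67, Cyp2c68 and Cyp3a11. Among these the fall was deeper under KO for Cyp1a2 and Cyp2c67 and deeper under OE for Cyp2c68 and Cyp3a11, and for Cyp2c38 no difference was detectable (-0.06 ± 0.46, adjusted p = 0.975).

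Genes that serve or control P450 enzymes were read beside the members. Over all genes tested, 43.9% were called higher and 42.7% lower in OE against GFP hepatocytes. In GFP against WT hepatocytes these shares were 45% and 38.4%, and counts near such shares are no result about a list. In KO against WT hepatocytes none of 7 electron donors and microsomal partners was called by edgeR or DESeq2 and none had an unadjusted p under 0.05. Por, the P450 oxidoreductase gene, was at 337, 120.1 and 68.8 TPM in KO and 283, 195 and 329.7 TPM in WT hepatocytes, overlapping (log2 fold change -0.56 ± 0.54 (SE), adjusted p = 0.667), and Cyb5a, which encodes cytochrome b5, was at -0.17 ± 0.12 on the log2 scale. In OE against GFP hepatocytes 3 of the 7 rose and 4 fell, with the lowest p in Ephx1, the microsomal epoxide hydrolase gene (log2 fold change -2.81 ± 0.04 (SE), adjusted p = 5.91e-17), and in Cyb5r3, the cytochrome b5 reductase gene (log2 fold change -1.56 ± 0.04 (SE), adjusted p = 4.51e-14). In GFP against WT hepatocytes all 7 fell (2 higher and 4 lower with library totals), with the lowest p in Cyb5a (-3.06) and Pgrmc1 (-1.67). Of 11 genes of heme synthesis and breakdown edgeR called none in KO against WT hepatocytes (3 with an unadjusted p under 0.05, 2 called by DESeq2), with the lowest p in Alad (-0.47) and Blvrb (-0.61). In OE against GFP hepatocytes 8 of the 11 fell and 1 rose, led by falls of Hmox1, the heme oxygenase gene (log2 fold change -1.82 ± 0.03 (SE), adjusted p = 1.03e-15), and Fech, the ferrochelatase gene (log2 fold change -1.32 ± 0.04 (SE), adjusted p = 7.87e-14). In GFP against WT hepatocytes 9 fell and 2 rose (4 and 4 with library totals), with the lowest p in Cpox (-2.24) and Fech (-1.48).

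Of 21 receptors and factors that control P450 genes, 19 were tested in KO against WT hepatocytes and edgeR called Cebpa itself (3 with an unadjusted p under 0.05), while DESeq2 also called Nr1i3 and Ahr. CAR mRNA (Nr1i3) was at 101, 45.0 and 104 TPM in KO and 218, 182 and 172 TPM in WT hepatocytes, without overlap but short of the threshold in edgeR (log2 fold change -1.19 ± 0.33 (SE), adjusted p = 0.166). In OE against GFP hepatocytes 11 of 18 rose and 6 fell, with the lowest p in Cebpa and in Hnf4a, a hepatocyte nuclear receptor gene. Of all genes tested there, 43.9% were called higher and 42.7% lower. Hnf4a was at 41.2, 43.8 and 40.7 TPM in OE and 182, 183 and 186 TPM in GFP hepatocytes (log2 fold change -2.28 ± 0.04 (SE), adjusted p = 2.86e-16), and PXR mRNA (Nr1i2) was at 3.83, 4.12 and 3.90 TPM in OE and 8.34, 7.84 and 7.56 TPM in GFP hepatocytes (log2 fold change -1.32 ± 0.09 (SE), adjusted p = 6.02e-09). In GFP against WT hepatocytes 15 of 19 fell and 2 rose (11 and 4 with library totals), with the lowest p in Hlf (-4.83) and Nr1i3 (-12.17). Of all genes tested there, 38.4% were called lower and 45% higher. Of 5 Ahr targets that are no P450, 3 passed the filter. None of these 3 was called in KO against WT hepatocytes by either edgeR or DESeq2 (1 with an unadjusted p under 0.05, Ugt1a6a having the lowest at -0.26 on the log2 scale and Nqo1 the next at -0.54), while in OE against GFP hepatocytes Tiparp rose (log2 fold change 2.92 ± 0.04 (SE), adjusted p = 6.36e-17) and Nqo1 (-2.68) and Ugt1a6a (-1.92) fell. In GFP against WT hepatocytes Nqo1 (1.51) and Tiparp rose and Ugt1a6a (-3.25) fell.

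P450 genes of the other families with at least 1 TPM in any group numbered 24. Over all genes tested, 43.9% were called higher and 42.7% lower in OE against GFP hepatocytes. In GFP against WT hepatocytes these shares were 45% and 38.4%. In KO against WT hepatocytes edgeR called none of 22 tested (6 with an unadjusted p under 0.05, 4 called by DESeq2), the lowest p being those of Cyp4a12b (-1.03) and Cyp27a1 (-0.79). In OE against GFP hepatocytes 9 of 23 rose and 13 fell, with the lowest p in Cyp27a1, the sterol hydroxylase gene (log2 fold change 1.10 ± 0.03 (SE), adjusted p = 6.84e-14), and Cyp21a1 (log2 fold change -3.94 ± 0.10 (SE), adjusted p = 7.47e-14). In GFP against WT hepatocytes 6 rose and 17 fell (7 and 16 with library totals), with the lowest p in Cyp4f15 (-6.78) and Cyp4f14 (-5.99).

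Some members belong to groups known from mouse liver. The shares of all genes called higher and lower were 0.692% and 1.02% in KO against WT hepatocytes. They were 43.9% and 42.7% in OE against GFP and 45% and 38.4% in GFP against WT hepatocytes. Of 9 P450 genes with more RNA in female liver, 6 stayed at or below 0.15 TPM in the mean of every group. The other 3 were Cyp2a4 and Cyp2c40, which fell in KO hepatocytes, and Cyp2c69, which DESeq2 but not edgeR called lower there. In OE hepatocytes Cyp2c40 and Cyp2c69 rose and Cyp2a4 was not tested. All 12 libraries looked male, with Xist at no more than 0.07 TPM and the Y-linked Ddx3y at no less than 21.45 TPM, and the study states that its mice were male. Of 8 pericentral P450 genes, edgeR called 3 lower in KO hepatocytes (Cyp1a2, Cyp2c37 and Cyp3a11), while 7 had an unadjusted p under 0.05 and DESeq2 called 6. In OE hepatocytes 7 of the 8 fell, and in GFP hepatocytes all 8. Of 7 other pericentral genes edgeR called 2 lower in KO hepatocytes, Lgr5 (log2 fold change -5.20 ± 0.72 (SE), adjusted p = 0.0221) and Gulo (log2 fold change -1.12 ± 0.16 (SE), adjusted p = 0.0231). Lgr5 was low in both groups, at 0.04, 0 and 0.12 TPM in KO and 1.52, 0.66 and 0.59 TPM in WT hepatocytes. In KO against WT hepatocytes 6 of the 7 had an unadjusted p under 0.05 and DESeq2 called 4. In OE hepatocytes 6 of 6 tested rose, with the lowest p in Oat (2.69) and Axin2 (4.11), the latter from a GFP mean of 0.49 TPM. All 7 fell in GFP hepatocytes, with the lowest p in Gulo (-5.38) and Oat (-6.08). Of 6 other periportal genes edgeR called none in KO hepatocytes (2 with an unadjusted p under 0.05, 1 called by DESeq2), with the lowest p in Gls2 (0.53) and Hal (-0.50). Of the same 6 genes 3 rose and 2 fell in OE hepatocytes, with the lowest p in Hal (6.07) and Ass1 (-1.92), and all 6 fell in GFP hepatocytes, with the lowest p in Gls2 (-4.52) and Hal (-8.04).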

How the data were processed

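Poly(A) RNA of 12 libraries had been made into stranded mRNA libraries. According to the submitters' processing notes, the authors used Trimmomatic 0.36, STAR 2.5.1, Picard 1.84, RSEM 1.2.22 and DESeq2 with build mm10. The deposited tables give RSEM expected counts per gene, which the authors did not scale for depth and which are not whole for 4.54 to 6.15% of values, so reads shared by similar genes were divided among them. They also give TPM, which the authors scaled for effective length to 1000000 per library. All 55450 gene identifiers were found in GENCODE M21, the source of coordinates. Cyp3a25 had 2 RefSeq promoter windows and counted once.

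Expected counts were rounded and tested with edgeR 4.0.16 in R 4.3.3 (filterByExpr, minimum count 10 and minimum total 15; TMM scaling; quasi-likelihood F test; Benjamini-Hochberg adjustment), with 1 fit per comparison on its 6 libraries and a fit of all 12 for the difference of effects. Calls were made where the adjusted p was under 0.05. Levels are TPM, with the SD over 3 libraries, and fold changes are from TMM-scaled counts, with the standard error (SE). Depth was 20160081 to 23304230 counts per library. Counts of sequenced fragments without molecular identifiers are not independent molecules.

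Members and lists were chosen with earlier results of these data known. Named with values were 9 genes given as markers of the set, the 2 members of each subfamily with the highest mean TPM, and up to 12 called members above 2-fold per comparison by lowest p (32 members in all), with the 2 genes of lowest p per list. Alternatives were DESeq2 1.42.0, its size factors, no filter, a stricter one (mean of 5 CPM or more, with 3 libraries reaching 1 CPM), limma 3.58.1 on log2(TPM + 1), a replicate block, a fit of all 12 libraries and leaving out each library, and library totals, which were added after the data were seen. The scripts were tested on simulated counts.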

Additional observations from a re-analysis of the deposited data

Results flagged for a closer look

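For 5 members called in both experiments, the difference of the effects itself passed the test (edgeR fit of all 12 libraries). Cyp2c40 moved in opposite directions, lower on loss of CEBPA and higher on its gain. Its effect of OE over GFP exceeded that of KO over WT by 6.33 on the log2 scale. Cyp2c40 entered the set only through its WT and OE means, so this difference was favoured by the way members were chosen. The other 4 fell in both. The difference was 0.89 for Cyp1a2 and 1.34 for Cyp2c67, where the fall was deeper in KO hepatocytes, and it was -2.26 for Cyp2c68 and -1.43 for Cyp3a11, where the fall was deeper in OE hepatocytes. The difference kept its call for all 5 under every alternative that tested it, but the calls within an experiment were less stable. The fall in KO hepatocytes was lost without WT1, WT2, WT3 or KO2 for Cyp2c40, Cyp2c68 and Cyp3a11, without KO1 as well for Cyp3a11, and the fall of Cyp2c67 in OE hepatocytes was lost without OE2 and with DESeq2, library totals, limma and the fit of all 12 libraries.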

How the results depend on the processing

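In KO against WT hepatocytes, members called higher numbered 3 with DESeq2 and 4 in the fit of all 12 libraries, against 1, and members called lower numbered 13 with each of these, against 8. Leaving out 1 library gave 2 to 8 members called lower, with 3 without WT1, 3 without WT2, 2 without WT3, 5 without KO1 and 2 without KO2, and 1 called higher each time. Over all genes the main 82 higher and 121 lower became 284 and 343 with DESeq2, 132 and 192 with no filter, 30 and 61 with the stricter filter and 587 and 618 in the fit of all 12 libraries. In GFP against WT hepatocytes, members called higher numbered 3 with library totals, 3 with limma and 0 in the fit of all 12 libraries, against 1. There Cyp2c55 turned to 0.12 with library totals and 0.24 with limma, and Cyp2j6 to 0.38 and 0.58. The difference of effects of Cyp2c38 turned to 1.08 with limma, and the summed Cyp2u log2 ratio of OE over GFP was -0.18 by TMM-scaled counts, against 0.13 by TPM. The causes were not tested. In OE against GFP hepatocytes each alternative kept the counts of called members within 1.5 times of 7 higher and 24 lower.

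With the replicate number as a block (replicate block), 6 members were called lower and 1 higher in KO against WT hepatocytes, over all genes 56 and 31, the calls of Cyp2c37 and Cyp2c68 being lost, and 24 lower and 7 higher in OE against GFP hepatocytes. It gave 34 lower and 1 higher in GFP against WT hepatocytes, and 17 lower and 9 higher for the difference of effects. Same-numbered deviations correlated at r = -0.369 to -0.007 in KO and WT, 0.003 to 0.075 in OE and GFP and 0.042 to 0.156 in GFP and WT libraries, not above 0.1 in every pair of any comparison, so the samples are taken to share only a number. The KO and WT libraries varied most, with a common biological coefficient of variation of 20.4%, against 4.04% in OE and GFP libraries, and members under 1 TPM rest on few reads.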
